A study of Mus musculus with 24 samples.

Results

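Hearts of floxed Fkbp1a mice that expressed Cre recombinase from the muscle creatine kinase (MCK) promoter were compared with hearts of floxed mice without Cre. The libraries were taken by their genotype label, 6 FKl/l MCK+ and 6 FKl/l, which makes 12 of the 24 libraries of the study. Of each genotype 3 libraries came from batch 1 and 3 from batch 2, and the names used here give genotype, batch and number (FKl/l MCK+ 1-2 is the second of batch 1). Both genotypes carry the floxed Fkbp1a alleles, and the Cre transgene is the only labelled difference between them. No library carried MCK-Cre without the floxed alleles, so the loss of Fkbp1a and the presence of the transgene cannot be told apart. The labels give the tissue as whole heart, and give no age, sex or strain. They do not say that the libraries are separate animals, and a p-value then covers only how much these libraries vary. The other 12 libraries, floxed hearts with αMHC-Cre (FKl/l MHC+) and unfloxed hearts with αMHC-Cre (MHC CRE Only), entered the same fit to estimate the spread. The study's design describes MCK as the driver that becomes active later in the embryo.

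Fkbp1a encodes FKBP12, a small peptidyl-prolyl isomerase that binds the immunosuppressants FK506 and rapamycin. It binds the ryanodine receptor, the channel that releases calcium from the sarcoplasmic reticulum, and it also binds type I receptors of the TGF-beta family and, when loaded with a drug, calcineurin or the mTOR kinase. The MCK promoter is active in cardiomyocytes and in skeletal muscle fibres, not in the endothelial cells, fibroblasts and blood cells that a whole heart also contains. A level measured in whole heart is therefore that of the mixture, and a smaller number of cells of a type and less RNA per cell cannot be told apart.

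The 12 libraries held between 27799403 and 40412640 counts on genes. Of those counts 27.4 to 36.5% fell on mitochondrially encoded genes. Y-linked transcripts were found in all 12, at a summed log2 CPM of 5.99 (FKl/l MCK+ 2-3) to 6.50 (FKl/l 1-2). Over all 24 libraries they ran from 5.76 (MHC CRE Only 2-1) to 6.60 (FKl/l MHC+ 2-2). A model term for these transcripts therefore follows differences in level, not their presence or absence. All 15 cardiomyocyte markers looked at were detected, led by Myh6, the adult myosin heavy chain, at a mean of 18362 CPM (counts on the gene scaled to the library's depth) in FKl/l and 19058 in FKl/l MCK+, and their summed level lay between 60210 and 73305 CPM in FKl/l and between 62527 and 73176 in FKl/l MCK+. A few libraries stood apart. FKl/l 1-1 carried airway and lung transcripts at a summed 446.69 CPM, against 0.992 to 34.9 CPM in the other 11. FKl/l 2-2 was high in interferon-induced genes. FKl/l 1-3, FKl/l MCK+ 1-2 and FKl/l 1-1 lay farthest from the mean of their genotype and batch, with root mean square deviations of 0.227, 0.232 and 0.224 on the log2 scale, where the other 9 lay between 0.138 and 0.200.

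Fkbp1a (ENSMUSG00000032966, plus strand, chr2:151542483-151561692 in GRCm38) was lower in every FKl/l MCK+ heart than in any FKl/l heart. Its level in FKl/l was 121 CPM in the lowest library, 127 at the median and 147 in the highest. In FKl/l MCK+ these values were 51.1, 64.6 and 81.1 CPM. The gap between the lowest control and the highest deletion library was wider than the spread within either genotype. The difference was a log2 fold change of -1.004 (SE 0.125), and its p in edgeR's quasi-likelihood test, adjusted over all genes by Benjamini and Hochberg's method, was 0.00032. It was -0.97 within batch 1 and -1.04 within batch 2. The transcript thus remained at 49.8% of the control level in whole heart. Of the 15 FKBP family members tested, Fkbp1a alone was called. Fkbp10, a collagen chaperone of the endoplasmic reticulum, had the next smallest p (26.005 against 30.7 CPM, log2 fold change 0.24, unadjusted p = 0.00678). Fkbp1b, the paralog that encodes FKBP12.6, was barely transcribed, with means of 0.404 CPM in FKl/l and 0.457 in FKl/l MCK+ (log2 fold change 0.17, SE 0.347), an estimate that has the opposite sign in batch 1 (-0.29). Fkbp5, a co-chaperone of steroid receptors, was at 13.9 and 15.4 CPM (log2 fold change 0.15, SE 0.247). Of 16 tested genes that neighbour Fkbp1a on chromosome 2, none was called by edgeR's test. The proteasome regulator Psmf1 (log2 fold change 0.17, unadjusted p = 0.00747) and the syntenin family gene Sdcbp2 (0.68, unadjusted p = 0.0259, and 0.43 without FKl/l MCK+ 1-2) were the ones at an unadjusted p under 0.05. Of all genes 3.27% were higher at that level.

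Across the transcriptome the difference between these hearts was small. Of 16018 genes tested 8 were called at an adjusted p under 0.05, which is 0.0499%, with 7 higher (0.0437%) and 1 lower (0.00624%). The lower gene was Fkbp1a. The higher genes were Kcne1, Cpne5, Masp1, Hamp, Fbln1, Fam78a and Cntn2. DESeq2 called 20 genes on the same counts, the same 8 and 12 of the 22 genes that came next by p in edgeR's test, and a test against a minimum fold of 1.2 called 3, Fkbp1a, Cpne5 and Kcne1. At an unadjusted p under 0.05 there were 839 genes (5.24%), 523 higher (3.27%) and 316 lower (1.97%). The median log2 fold change over all genes was 0.00434, and 118 genes differed by 2-fold or more in either direction. In 25 genes (0.156%) every FKl/l MCK+ library was above every FKl/l library, and in 11 (0.0687%) every one was below, and 6 of the 8 called genes were among these 36. The exceptions were Fam78a and Cntn2. The count of called genes was 5 without FKl/l MCK+ 2-3, 5 without FKl/l 2-2 and 5 without FKl/l 2-3.

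**Figure D1:**
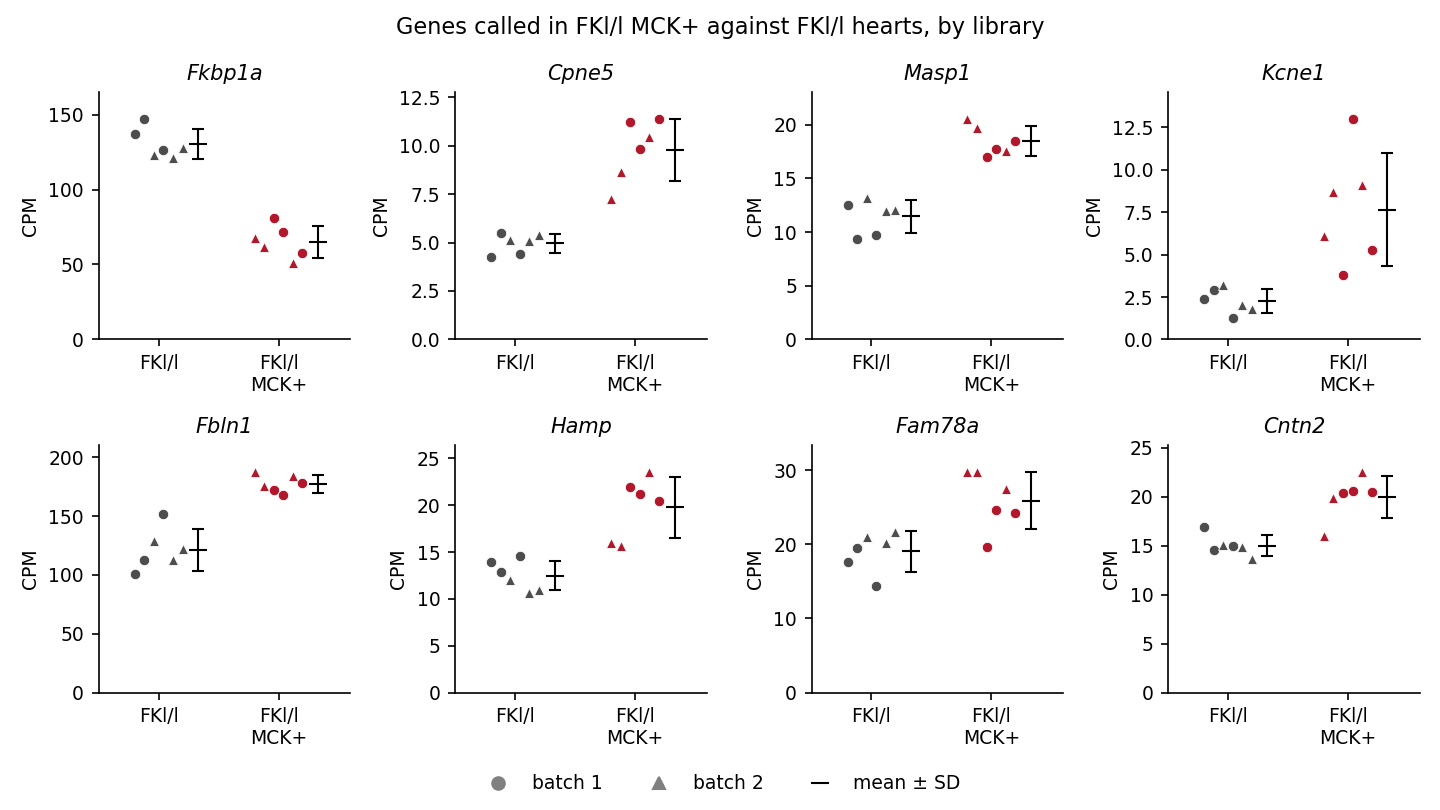
CPM of the 8 called genes in each FKl/l library (grey) and FKl/l MCK+ library (red), with circles for batch 1 and triangles for batch 2. The black bars give mean ± SD (n = 6). Fkbp1a, Cpne5, Masp1, Kcne1, Fbln1 and Hamp do not overlap between the genotypes, while Fam78a and Cntn2 do.

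**Figure D2:**
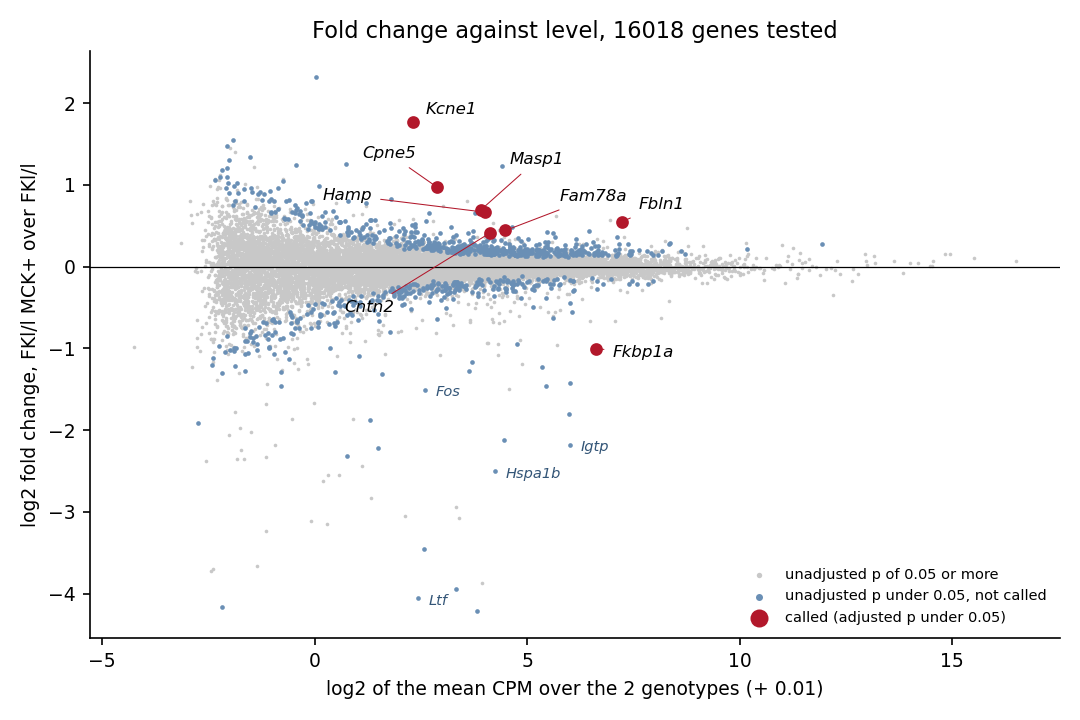
Log2 fold change of FKl/l MCK+ over FKl/l (vertical axis) against the log2 of the mean CPM of both genotypes (horizontal axis) for 16018 genes. The 8 called genes are red, and uncalled genes at an unadjusted p under 0.05 are blue. Several low-lying blue points, such as Ltf and Igtp, have larger folds than the called genes.

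Kcne1 (ENSMUSG00000039639, minus strand, chr16:92345982-92359468) rose the most among the called genes, 3.4-fold. It encodes minK, the auxiliary subunit that joins the pore protein Kcnq1 in the slow delayed rectifier potassium channel, and it is known as a transcript of the conduction system. Its level in FKl/l was 1.27 CPM in the lowest library, 2.21 at the median and 3.24 in the highest. In FKl/l MCK+ it was 3.80, 7.39 and 13.0 CPM. The genotypes did not overlap, but the deletion libraries spread over a wide range, with the highest value in FKl/l MCK+ 1-2. The log2 fold change was 1.77 (SE 0.255, adjusted p = 0.00241), 1.77 in batch 1 and 1.76 in batch 2, and 1.45 without FKl/l MCK+ 1-2 (adjusted p = 0.000957). When the fit held only these 12 libraries the adjusted p was 0.218. Its partner Kcnq1 was at 30.7 ± 3.59 CPM in FKl/l and 33.2 ± 2.80 in FKl/l MCK+ (SD, n = 6 each), a log2 fold change of 0.11 with an interval of 2 SE from -0.06 to 0.28. Of 29 potassium channel genes tested, Kcne1 was the 1 called and the 1 at an unadjusted p under 0.05. Of all genes 3.27% were higher at that level.

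Cpne5 (ENSMUSG00000024008, minus strand, chr17:29155556-29238167) encodes a copine, a protein that binds membrane phospholipids in the presence of calcium, and rose 1.96-fold. Its control libraries were tightly grouped, with 4.25 CPM in the lowest, 5.09 at the median and 5.48 in the highest. In FKl/l MCK+ the values were 7.24, 10.1 and 11.4 CPM. Every deletion library lay above every control library, and the lowest of them, FKl/l MCK+ 2-1 and 2-2, were both of batch 2. This is a log2 fold change of 0.97 (SE 0.130, adjusted p = 0.00032), with 1.19 in batch 1 and 0.76 in batch 2, and the 2 batches did not differ by the interaction test (unadjusted p = 0.0798). It is the gene called in batch 1 alone. None of the 5 other copines tested was called by edgeR, nor was any at an unadjusted p under 0.05.

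Cntn2 (ENSMUSG00000053024, minus strand, chr1:132509427-132543256), a contactin of the immunoglobulin family that marks Purkinje fibres and other cells of the conduction system, rose 1.33-fold. FKl/l libraries held 13.6, 14.9 and 16.96 CPM at the lowest, median and highest, and FKl/l MCK+ libraries 15.99, 20.4 and 22.6 CPM. FKl/l MCK+ 2-1 overlapped the controls, and the other 5 deletion libraries lay above all of them. The log2 fold change was 0.41 (SE 0.0798, adjusted p = 0.0336), with 0.40 and 0.42 in the batches. With that of Fam78a, this call held under the fewest left-out libraries. It held in 2 of the 12 fits that each left out 1 library of these genotypes, those without FKl/l 1-1 and without FKl/l MCK+ 2-1, and the adjusted p reached 0.202 without FKl/l MCK+ 2-3. It was also lost with the 12 libraries alone (adjusted p = 0.082), without a batch term (0.109), with Y-linked transcripts as a term (0.114) and under a replicate block (0.0882).

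Kcne1, Cpne5 and Cntn2 stand on a list of 30 conduction system genes, which was written with earlier results of these data known, so that its count is a description. Of 29 members tested 3 were called higher and 7 were higher at an unadjusted p under 0.05, with none lower by edgeR's test at that level. The share of all genes that were higher at that level was 3.27%. The remaining 4 were the T-type calcium channel Cacna1g (14.2 against 18.5 CPM, log2 fold change 0.39, unadjusted p = 0.0102), the connexin gene Gjc1 (0.24, unadjusted p = 0.0107), the transcription factor Irx3 (0.49, unadjusted p = 0.0189) and the cardiac factor Nkx2-5 (0.15, unadjusted p = 0.0477), of which Gjc1 and Irx3 were named after their values were seen. Cacna1g was highest in FKl/l MCK+ 1-2, at 27.7 CPM, and its log2 fold change was 0.20 without that library. The median log2 fold change of the list was 0.07, and 0.133 without FKl/l 1-3. Of the 29 members 21 were positive and 8 negative, the lowest at -0.27. For the conduction genes Hcn4, Gja5 and Tbx3 the authors' deposited table gives log2 fold changes of 0.06, 0.11 and -0.11.

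The sequences of 4 promoters of genes called on the higher side are shown, from the RefSeq promoter table (GRCm38.p6), which matched 6 of the 8 called genes, all but Kcne1 and Masp1. Fam78a has 4 entries at different starts and is left out for length, and of the 2 entries of Fbln1 the one at the annotated start of the gene is shown. Each runs 5′ to 3′ on the gene's own strand from 250 bases before the RefSeq start of transcription to 50 after it. Motif positions count from that start. For Cpne5 and Cntn2 it differs from the start in the gene positions given above, and their windows lie wholly inside those positions. Capitals mark matches to the motifs searched on both strands. The motif searched for as a GC box was GGGCGG, and CACGTG was searched for as an E-box. The core of an NFAT site was spelled GGAAAA and a GATA site AGATAA. The motif of AP-1 was TGANTCA, that of a BMP-response element GGCGCC, that of T-box factors AGGTGT and that of a TATA box TATAAA.
Cpne5, minus strand, chr17:29237741-29238040: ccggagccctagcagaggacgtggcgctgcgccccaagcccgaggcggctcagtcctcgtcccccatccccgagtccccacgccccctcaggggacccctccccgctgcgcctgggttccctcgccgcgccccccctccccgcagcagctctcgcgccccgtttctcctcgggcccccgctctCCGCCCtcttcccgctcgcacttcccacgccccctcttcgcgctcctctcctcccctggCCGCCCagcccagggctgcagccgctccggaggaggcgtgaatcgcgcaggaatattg
Cntn2, minus strand, chr1:132542891-132543190: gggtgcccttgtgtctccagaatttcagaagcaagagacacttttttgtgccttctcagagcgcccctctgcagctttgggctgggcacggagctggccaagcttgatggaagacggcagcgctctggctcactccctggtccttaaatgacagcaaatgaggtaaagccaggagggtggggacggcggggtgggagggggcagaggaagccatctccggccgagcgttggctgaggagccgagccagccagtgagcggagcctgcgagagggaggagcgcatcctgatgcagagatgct
Hamp, minus strand, chr7:30943980-30944279: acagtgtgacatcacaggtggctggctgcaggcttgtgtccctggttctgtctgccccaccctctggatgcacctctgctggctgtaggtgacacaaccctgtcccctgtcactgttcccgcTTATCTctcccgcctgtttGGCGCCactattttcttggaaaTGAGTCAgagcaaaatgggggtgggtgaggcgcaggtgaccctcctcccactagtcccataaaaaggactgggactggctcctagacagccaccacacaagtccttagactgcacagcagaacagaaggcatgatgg
Fbln1, plus strand, chr15:85205699-85205998: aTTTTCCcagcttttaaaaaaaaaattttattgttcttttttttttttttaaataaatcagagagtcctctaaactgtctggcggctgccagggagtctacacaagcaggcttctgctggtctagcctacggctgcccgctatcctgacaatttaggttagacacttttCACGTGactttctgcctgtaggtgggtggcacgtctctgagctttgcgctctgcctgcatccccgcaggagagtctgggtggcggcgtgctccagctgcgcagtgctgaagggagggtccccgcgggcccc
The Cpne5 window is GC-rich (74.7%, where the median of all promoters was 52.7%) and holds 2 GC boxes, at bases -67 to -62 and -8 to -3 from the start. The Cntn2 window holds none of the 8 motifs. The Hamp window holds an AP-1 match at -87 to -81, a GGCGCC match at -109 to -104 and a GATA match on the other strand at -128 to -123. The Fbln1 window holds CACGTG at -81 to -76 and the NFAT core on the other strand at -249 to -244. The second Fbln1 entry, which starts further downstream, holds CACGTG at -140 to -135 from its own start and GC boxes at -11 to -6 and 11 to 16, and no NFAT core. GC boxes also stand in 2 of the Fam78a entries. Such matches are common: among 32851 promoters of this length 35.7% held a GC box, 7.15% CACGTG, 23.4% the NFAT core, 11.2% the GATA motif, 7.81% the AP-1 motif, 11.9% GGCGCC, 13.7% the T-box motif and 13.6% a TATA box.

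Masp1 (ENSMUSG00000022887, minus strand, chr16:23449417-23520815) encodes serine proteases that start the lectin pathway of complement, and rose 1.62-fold. Its control libraries held 9.40, 12.005 and 13.2 CPM at the lowest, median and highest, and the deletion libraries 16.97, 18.1 and 20.6 CPM. The genotypes were well separated, and both were tightly grouped. On the log2 scale it rose by 0.69 (SE 0.106, adjusted p = 0.00228), with 0.75 in batch 1 and 0.64 in batch 2. Rtp4, an interferon-induced gene, overlaps Masp1 on the opposite strand, and was itself at 7.55 and 7.90 CPM (log2 fold change 0.07, SE 0.221). Among 25 complement genes tested no other was called by edgeR. Cfd, the complement protease of fat cells, had the largest difference of the list (-1.23 on the log2 scale, unadjusted p = 0.0283; FKl/l 57.0 ± 31.7 CPM, FKl/l MCK+ 24.4 ± 13.6 CPM, SD) and is also one of the adipocyte markers described further on.

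Hamp (ENSMUSG00000050440, minus strand, chr7:30942368-30944032) encodes hepcidin, the peptide that makes cells withdraw the iron exporter ferroportin, and rose 1.59-fold. FKl/l libraries held 10.6, 12.5 and 14.6 CPM, and FKl/l MCK+ libraries 15.6, 20.8 and 23.6 CPM. The genotypes did not overlap, although 2 deletion libraries, 2-1 and 2-2, lay within 1.5 CPM of the highest control. On the log2 scale this was 0.67 (SE 0.117, adjusted p = 0.012), with 0.62 and 0.71 in the batches. The call held in 9 of the 12 fits without 1 of these libraries, and the adjusted p reached 0.0589 without FKl/l 2-2. The call was also lost when batch was left out of the model (0.109) and with Y-linked transcripts as a term (0.114). Without FKl/l 1-1, FKl/l 1-3 and FKl/l MCK+ 1-2 together it was 0.156, at a log2 fold change of 0.71. Of 24 iron-handling genes tested Hamp was the 1 called. The ferrireductase Steap3 was the next by p (36.0 against 41.7 CPM, log2 fold change 0.21, unadjusted p = 0.00837), and the median of the list was 0.03.

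Fam78a (ENSMUSG00000050592, minus strand, chr2:32050055-32084857), whose function is not well known, rose 1.36-fold. FKl/l libraries held 14.3, 19.8 and 21.7 CPM, and FKl/l MCK+ libraries 19.6, 26.02 and 29.7 CPM. One deletion library, FKl/l MCK+ 1-1, lay within the control range. The log2 fold change was 0.44 (SE 0.0854, adjusted p = 0.0336), and the call held in 2 of the 12 fits without 1 of these libraries, those without FKl/l 1-2 and without FKl/l MCK+ 1-1 (adjusted p up to 0.131, without FKl/l MCK+ 2-2). It was lost without a batch term, at an adjusted p of 0.723, and with Y-linked transcripts as a term, at 0.194. Its locus overlaps Nup214 on the opposite strand, which was at 19.5 and 21.5 CPM (log2 fold change 0.14, SE 0.0727). On the same strand the locus overlaps Gm16534, with 3086 counts against 20015 of Fam78a over 24 libraries. The strand setting of the counting is not given in the sources used here, so reads of the overlap cannot be assigned with certainty for Fam78a and Masp1. For Gm16534 a strand setting would not separate the reads.

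Fbln1 (ENSMUSG00000006369, plus strand, chr15:85205949-85286535) encodes fibulin 1, a secreted glycoprotein of elastic fibres and basement membranes that fibroblasts make. It was the most abundant gene among those called on the higher side, and rose 1.46-fold. FKl/l libraries held 101, 117 and 151 CPM at the lowest, median and highest, and FKl/l MCK+ libraries 168, 177 and 188 CPM. The deletion libraries were the more tightly grouped, and all lay above FKl/l 1-3, the highest control. The log2 fold change was 0.55 (SE 0.0939, adjusted p = 0.00859), with 0.50 and 0.59 in the batches, and the call held in all 12 fits without 1 of these libraries (adjusted p up to 0.0489). It was lost with Y-linked transcripts as a term (adjusted p = 0.0686) and against a minimum fold of 1.2.

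Around Fbln1, matrix genes lay mostly above 0 but below the threshold of the test. Of 45 extracellular matrix genes tested none was called by edgeR's test, 10 were higher and none lower at an unadjusted p under 0.05 (3.27% of all genes were higher at that level), and 38 of 45 had a positive log2 fold change, with a median of 0.14. Nidogen 1 (Nid1), a linker of basement membranes, was at 64.4 ± 7.02 CPM in FKl/l and 78.1 ± 9.21 in FKl/l MCK+ (SD, n = 6 each), with a fold of 0.28 on the log2 scale (SE 0.0628) at an adjusted p of 0.176. The collagen chains Col4a1 (293 against 355 CPM, 0.28), Col6a1 (91.9 against 110 CPM, 0.26) and Col1a2 (129 against 157 CPM, 0.28) had unadjusted p-values of 0.00778, 0.00895 and 0.0133. Part of this lay in 1 library: FKl/l MCK+ 1-2 had a summed matrix level of 5312 CPM, where the other FKl/l MCK+ libraries had 3604 to 4351 and FKl/l libraries 3400 to 3809. Without it the median of the list was 0.07. The elastic fibre list held 21 tested genes, 17 positive, with a median of 0.15 (0.085 without FKl/l MCK+ 1-2) and 1 called, Fbln1. Its other members at an unadjusted p under 0.05 were fibrillin 2 (Fbn2, 1.28 against 2.175 CPM, log2 fold change 0.81, unadjusted p = 0.00141), Emilin1 (0.20) and the lysyl oxidase Loxl1 (0.20).

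Fibroblast and endothelial markers lay mostly above 0 as well, but the fibroblast list shares members with the lists above, Fbln1 and Col1a2 among them. Of 22 fibroblast markers 21 had a positive log2 fold change, with a median of 0.13 (0.08 without FKl/l MCK+ 1-2). Fbln1 was the 1 called, and Col1a2, Cd248 (20.0 against 24.3 CPM, log2 fold change 0.29, unadjusted p = 0.0230) and Clec3b (0.21, unadjusted p = 0.0247) were higher at an unadjusted p under 0.05. Of all genes 3.27% were higher at that level. For the fibroblast genes Pdgfra and Tcf21 the authors' deposited table gives log2 fold changes of 0.07 and -0.08. The summed fibroblast marker level was 1873 to 2303 CPM in FKl/l and 2085 to 2658 CPM in FKl/l MCK+, so the genotypes overlapped. Of 22 endothelial markers 18 were positive, with a median of 0.10 (0.06 without FKl/l MCK+ 1-2) and none called by edgeR. Endoglin (Eng, 185 against 211 CPM, log2 fold change 0.20, unadjusted p = 0.00364), Pecam1 (0.15) and the angiopoietin receptor Tek (0.13) were those at an unadjusted p under 0.05. The cardiomyocyte marker list had a median of 0.04 and 9 of 15 positive. Whether the share of these cell types differed between the hearts was not tested.

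**Figure D3:**
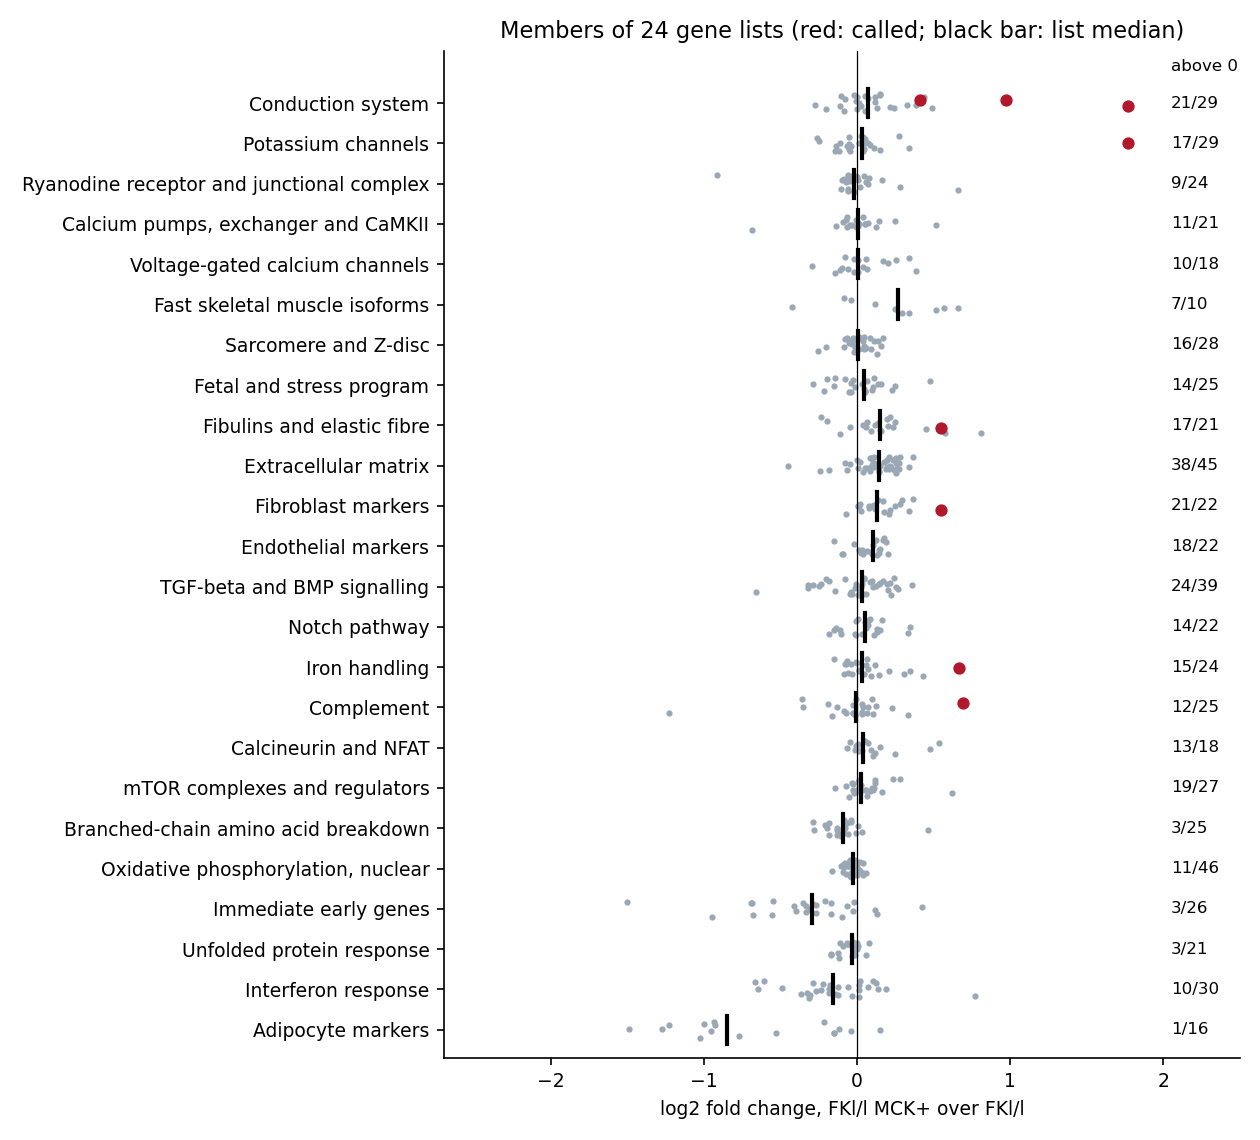
Log2 fold change of FKl/l MCK+ over FKl/l (horizontal axis) for the tested members of 24 gene lists, 1 point a gene, red where called. The black bar is the list's median, and the figures at the right count members above 0 out of those tested. Most medians lie near 0. The fast skeletal muscle list has the highest (0.27), and the elastic fibre, matrix and fibroblast lists also lie above 0. The adipocyte, immediate early gene and interferon lists lie below.

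Calcium handling, the process in which FKBP12 is best known, showed few differences at the transcript level. Of 24 tested genes of the ryanodine receptor complex and the junction that holds it, none was called by edgeR, 9 were positive and 15 negative, and the median was -0.02. The cardiac ryanodine receptor Ryr2 was at 639 ± 89.5 CPM in FKl/l and 629 ± 69.7 in FKl/l MCK+ (SD, n = 6 each), a log2 fold change of -0.02 with an interval of 2 SE from -0.18 to 0.14. The cardiac calsequestrin Casq2 (-0.00, SE 0.0806), the calcium pump Atp2a2 (0.04, SE 0.121), its inhibitor phospholamban (Pln, -0.03, SE 0.0892) and the sodium-calcium exchanger Slc8a1 (-0.05, SE 0.105) likewise had estimates smaller than their errors, and the signs of Ryr2, Casq2, Atp2a2 and Pln turned in 1 or the other batch. Both members of the list with a small p were genes better known from skeletal muscle. Casq1, the skeletal calsequestrin that buffers calcium in the reticulum, was at 9.16, 10.8 and 11.8 CPM in FKl/l and at 12.8, 15.3 and 26.2 CPM in FKl/l MCK+. Its genotypes did not overlap, and the highest value was in FKl/l MCK+ 1-2. It was not called by edgeR (log2 fold change 0.66, SE 0.141, adjusted p = 0.112), and was called by DESeq2 (adjusted p = 0.00357). Jsrp1, which encodes the junctional protein JP-45, was low in all hearts and was not called. It was at 0.379, 0.443 and 0.679 CPM in FKl/l and 0.168, 0.261 and 0.308 CPM in FKl/l MCK+ (log2 fold change -0.92, SE 0.268, unadjusted p = 0.00194, adjusted p = 0.517). Its genotypes did not overlap either.

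Other calcium genes with an unadjusted p under 0.05 were few. Of all genes 3.27% were higher and 1.97% lower at that level. Among 21 pumps, exchangers and CaMKII genes these were the skeletal pump Atp2a1 (4.20 against 6.03 CPM, log2 fold change 0.52, unadjusted p = 0.0237), the kinase subunit Camk2b (0.25, unadjusted p = 0.0336) and the plasma membrane pump Atp2b2 (0.831 against 0.514 CPM, -0.69, unadjusted p = 0.0211). Among 18 voltage-gated calcium channel genes they were the T-type pair, Cacna1g on the higher side and Cacna1h on the lower (28.0 against 22.9 CPM, -0.29, unadjusted p = 0.0230). Of 10 fast skeletal muscle isoforms tested 3 were higher at that level (3.27% of all genes were), Casq1, Atp2a1 and the troponin Tnni2 (2.00 against 2.97 CPM, log2 fold change 0.57, unadjusted p = 0.0155), and none was called by edgeR. The median of this list was 0.27, with -0.11 in batch 1 and 0.61 in batch 2, and 0.089 without FKl/l MCK+ 2-2. The fast myosin-binding protein Mybpc2 was at 23.4 and 25.3 CPM (0.12, SE 0.191).

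The genes used as readouts of cardiac stress did not separate the genotypes. Of 25 members of the fetal and stress program tested none was called by edgeR, and the median was 0.04. The natriuretic peptide Nppa was at 1046 to 5378 CPM in FKl/l and 1253 to 2580 in FKl/l MCK+, and 1 control, FKl/l 1-3, held the highest value. Its log2 fold change was -0.20 (SE 0.226), -0.67 in batch 1 and 0.38 in batch 2. Nppb was at 148 to 444 CPM in FKl/l and 111 to 305 CPM in FKl/l MCK+ (-0.02, SE 0.309), again with opposite signs in the batches, -0.70 and 0.63. The slow myosin Myh7 was at 49.8 to 211 CPM and 45.5 to 205 CPM (0.23, SE 0.342). Sarcomere and Z-disc genes had a median of 0.01 over 28 tested, with none called by edgeR and none at an unadjusted p under 0.05.

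The pathways that FKBP12 is known to touch were as near to 0. Of 18 calcineurin and NFAT genes and 27 mTOR genes tested none was called by edgeR, and the medians were 0.04 and 0.02. Of 39 TGF-beta and BMP genes tested none was called either, with 5 higher and 1 lower at an unadjusted p under 0.05 (3.27% and 1.97% of all genes). Among these, the co-receptor Eng, the receptor Tgfbr2 (42.0 against 47.1 CPM, log2 fold change 0.17, unadjusted p = 0.00908) and the ligand Tgfb1 (47.3 against 55.2 CPM, 0.22, unadjusted p = 0.0139) were on the higher side, and the BMP target Id3 on the lower (34.9 against 30.7 CPM, -0.18, unadjusted p = 0.00942). Of 22 Notch pathway genes 2 were higher at that level (3.27% of all genes). Notch4, a receptor of endothelial cells, was at 24.7, 28.6 and 31.6 CPM in FKl/l and 29.9, 37.1 and 41.3 CPM in FKl/l MCK+ (log2 fold change 0.34, SE 0.0827, adjusted p = 0.251). The glycosyltransferase Lfng was at 5.12 and 6.41 CPM (0.33, unadjusted p = 0.00393).

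Below the 8 called genes, the next 22 by p had adjusted p-values from 0.0679 to 0.479, and 18 of them were higher in FKl/l MCK+ and 4 lower. The closest to the threshold was Igsf1, an immunoglobulin superfamily gene on the X chromosome, at 18.96 ± 3.01 CPM in FKl/l and 25.8 ± 3.00 in FKl/l MCK+ (SD, n = 6 each), with a fold of 0.44 on the log2 scale (SE 0.0909) at an adjusted p of 0.0679. It was called with the 12 libraries alone and by DESeq2 (adjusted p = 0.00304). The RNA-binding protein gene Csdc2 (62.9 against 79.5 CPM, 0.33) and the choline transporter Slc44a2 (84.4 against 104 CPM, 0.30) both had an adjusted p of 0.112. Pdgfrb, the PDGF receptor of pericytes and fibroblasts, was at 66.4 to 77.9 CPM in FKl/l and at 79.7 to 91.7 CPM in FKl/l MCK+, so the genotypes did not overlap (log2 fold change 0.25, SE 0.0575, adjusted p = 0.176). Dysf, which encodes the membrane repair protein dysferlin, was at 74.0 ± 4.21 and 101 ± 15.9 CPM (0.44, adjusted p = 0.379), and Ucp2, a mitochondrial carrier, at 122 ± 26.5 and 156 ± 23.96 CPM (0.37, adjusted p = 0.272; SD, n = 6 each).

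The largest fold among these 22 was that of Lypd1, a Ly6 family gene, at 0.424 against 1.04 CPM (log2 fold change 1.25, SE 0.306, adjusted p = 0.272). Its counts were few, 616 over 24 libraries. The gene Gpr39, whose locus overlaps that of Lypd1 on the other strand, had 395 counts in all. On the lower side stood the ephrin Efnb3 at 73.8 ± 12.2 against 54.2 ± 10.4 CPM (-0.45, adjusted p = 0.181), the guidance cue netrin 1 (Ntn1) at 49.4 ± 10.4 against 37.5 ± 5.70 CPM (-0.39, adjusted p = 0.251), Tex261 (-0.30, adjusted p = 0.458) and Pfkfb1 (-0.80, adjusted p = 0.479, and -0.52 without FKl/l 1-3). Pfkfb1 encodes a bifunctional enzyme of glycolytic control, and was at 4.30 ± 1.65 and 2.48 ± 0.627 CPM (SD, n = 6 each), with overlapping libraries. The others were Tigd5, Frat2, Ephb3, Micall2, Stox2, Htra3, Fzd2 and Ackr4, all on the higher side, with log2 fold changes from 0.25 to 0.57. Ackr4 overlaps Acad11 on the opposite strand, which had 65335 counts over 24 libraries against 2219 of Ackr4. Likewise Pfkfb1 overlaps Apex2, with 3672 counts against 2566 of Pfkfb1. How many counts of such overlapping genes lie in the shared stretches was not measured.

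**Figure D4:**
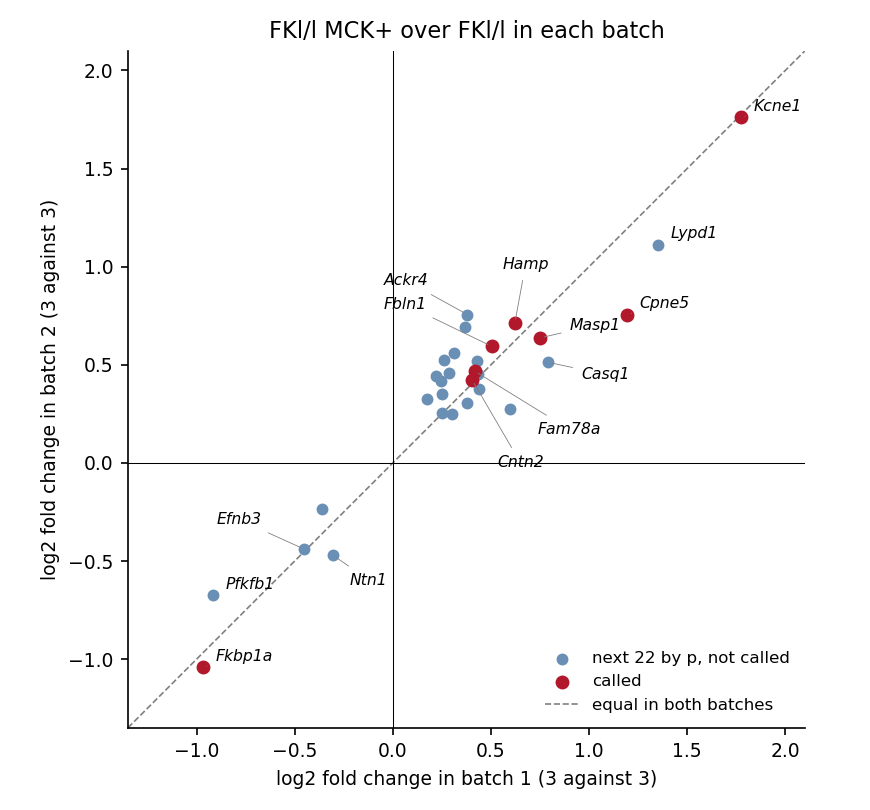
Log2 fold change of FKl/l MCK+ over FKl/l in batch 1 (horizontal axis) and in batch 2 (vertical axis) for the 8 called genes (red) and the next 22 by p (blue). Each batch compares 3 libraries with 3. All 30 points lie in the quadrants of equal sign, which the choice of genes by both batches together favours, and Cpne5 and Ackr4 lie farther from the dashed line of equal folds than Kcne1 or Cntn2.

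Whether the difference depended on batch was tested gene by gene with an interaction term. None was called by edgeR's test (smallest adjusted p = 0.542), and 444 genes had an unadjusted p under 0.05. Within batch 1 alone 1 gene was called, Cpne5, and within batch 2 alone 7, of which 3 were among the 8. In batch 1 alone Fkbp1a itself, at a log2 fold change of -0.98, had an adjusted p of 1.

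Energy metabolism differed little. Enzymes that break down branched-chain amino acids lay mostly below 0, with 22 of 25 negative, a median of -0.09, none called by edgeR and 4 lower at an unadjusted p under 0.05, a share to be read against 1.97% of all genes. These were the transaminase Bcat2 (75.0 against 61.8 CPM, log2 fold change -0.29, unadjusted p = 0.00138), the methylcrotonyl-CoA carboxylase subunit Mccc2 (29.7 against 26.2 CPM, -0.18), the dehydrogenase subunit Bckdha (182 against 157 CPM, -0.21) and its phosphatase Ppm1k (39.5 against 32.2 CPM, -0.28). The median of this list stayed between -0.12 and -0.08 in the fits that each left out 1 of the 12 libraries. Nuclear genes of oxidative phosphorylation had a median of -0.03 with 35 of 46 negative, the citric acid cycle list -0.04 and fatty acid oxidation -0.04. None of these lists had a member called by edgeR.

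Immediate early genes, which respond rapidly to stimulation, lay mostly below 0. Of 26 tested 23 were negative, with a median of -0.30 (-0.39 in batch 1, -0.09 in batch 2, and -0.178 without FKl/l 1-1, FKl/l 1-3 and FKl/l MCK+ 1-2), and none was called by edgeR. Fos was at 4.00, 8.50 and 11.3 CPM at the lowest, median and highest in FKl/l, and at 1.05, 3.33 and 7.75 CPM in FKl/l MCK+ (log2 fold change -1.51, SE 0.644, unadjusted p = 0.0303). Its partner Jun was at 79.8 ± 27.2 and 53.5 ± 10.7 CPM (SD, n = 6 each; -0.56, unadjusted p = 0.0191). Arc, another immediate early gene, was on the higher side (2.43 against 3.27 CPM, 0.42, unadjusted p = 0.0201). The summed level of the list was 520 to 673 CPM in FKl/l and 444 to 486 CPM in FKl/l MCK+ within batch 1, where the genotypes did not overlap, and 667 to 776 and 600 to 686 CPM within batch 2, where they did. Of 20 tested genes of the integrated stress response 12 were negative and 8 positive, with a median of -0.065 and none called by edgeR. Its 2 members at an unadjusted p under 0.05 were Ddit3 at 8.70 against 7.12 CPM (-0.30, unadjusted p = 0.00162) and Ppp1r15a at 16.1 against 12.6 CPM (-0.36, unadjusted p = 0.00584). For this list and the immediate early genes, the shares of all genes at that level were 1.97% lower and 3.27% higher. The unfolded protein response list had 18 of 21 members negative and a median of -0.04.

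Several of the largest folds among genes with an unadjusted p under 0.05 rested on few control libraries. The interferon-induced GTPase Igtp was at 578 CPM in FKl/l 2-2 and at 21.2 CPM or less in the other controls, against 15.0 to 26.5 CPM in FKl/l MCK+ (log2 fold change -2.18, and 0.16 without FKl/l 2-2). Its relatives Irgm2, Iigp1 and Gbp6 followed, at -1.43, -1.80 and -1.46, or 0.18, -0.12 and -0.18 without that library. The lactoferrin gene Ltf was at 58.5 CPM in FKl/l 1-1 and at 0.867 CPM or less in the other controls (-4.06, or 1.44 without it). The heat shock genes Hspa1b and Hspa1a were high in all 3 FKl/l libraries of batch 2 (18.1, 58.9 and 119 CPM for Hspa1b), and at 1.5999 to 8.99 CPM in FKl/l MCK+ (-2.51, unadjusted p = 0.00806). Adipocyte markers had 15 of 16 members negative and a median of -0.85 (-0.56 without FKl/l 1-1, and -0.475 without FKl/l 1-1, FKl/l 1-3 and FKl/l MCK+ 1-2), with the lipid droplet protein Cidec at 17.8 ± 11.9 and 7.10 ± 1.98 CPM (SD, n = 6 each; -1.28, unadjusted p = 0.0213). Their summed level was 719 to 1354 CPM in FKl/l, highest in 2-2, 1-1 and 1-3, and 665 to 1010 CPM in FKl/l MCK+. On the higher side Cyp26b1, which degrades retinoic acid, was at 7.23 to 20.4 CPM in FKl/l and 13.4 to 66.4 CPM in FKl/l MCK+ (1.23, SE 0.478, adjusted p = 0.854, and 0.715 without FKl/l MCK+ 1-1). Erythroid markers were positive in 10 of 11 with a median of 0.26 (0.53 in batch 1, -0.01 in batch 2, and 0.115 without FKl/l MCK+ 1-2, whose summed level of 14280 CPM was the highest), led by the anion exchanger Slc4a1 (0.65, unadjusted p = 0.0307), and neurogranin (Nrgn, 0.56, unadjusted p = 0.0417) rested on FKl/l MCK+ 2-3, at 16.3 CPM (0.16 without it).

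**Figure D5:**
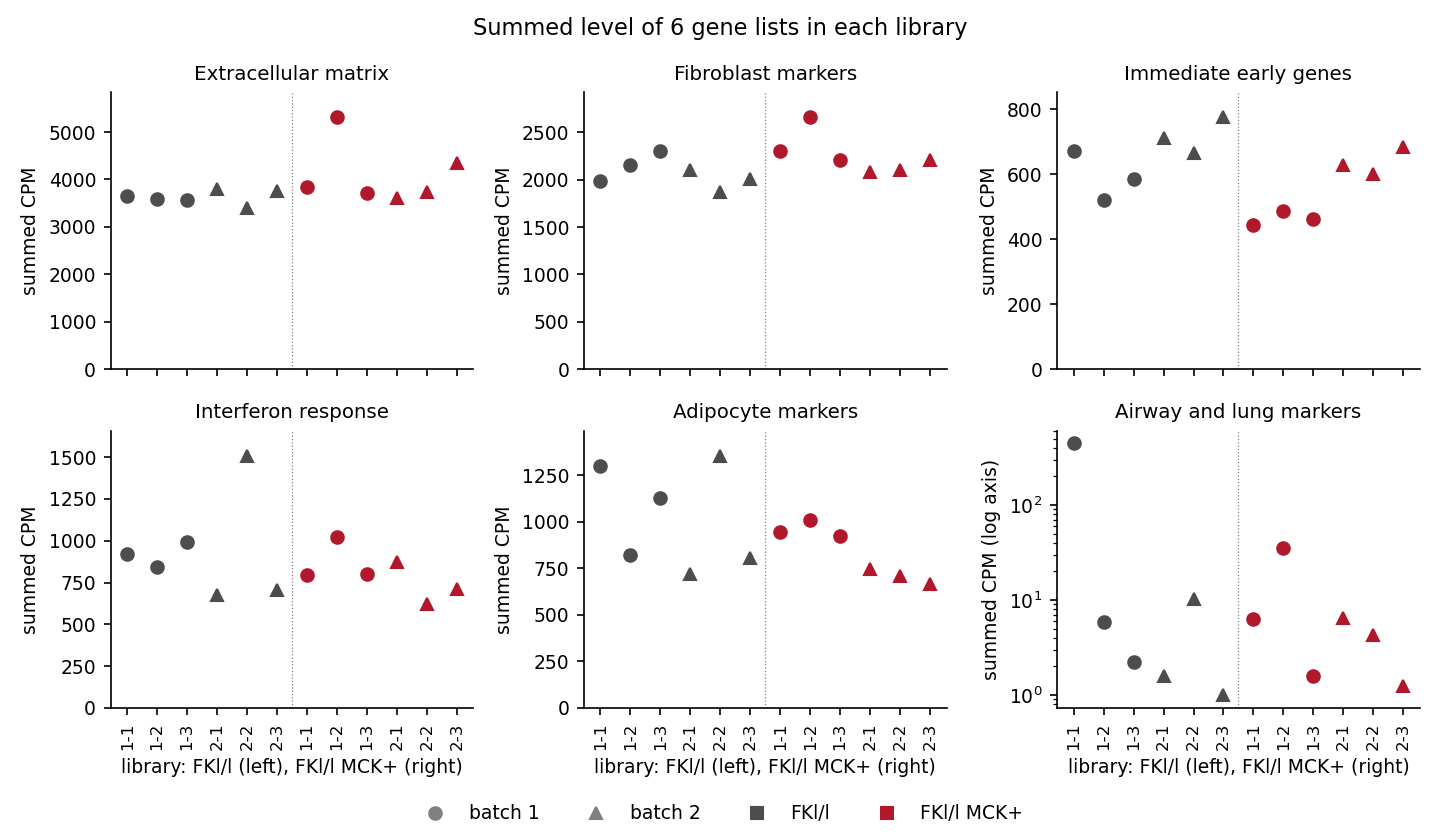
Summed CPM of 6 gene lists in each FKl/l library (grey, left of the dotted line) and FKl/l MCK+ library (red, right), with circles for batch 1 and triangles for batch 2. The axis of the airway panel is logarithmic and the others start at 0. FKl/l MCK+ 1-2 is the highest in matrix and fibroblast genes, FKl/l 2-2 in interferon and adipocyte genes and FKl/l 1-1 in airway genes.

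The hearts with the earlier αMHC driver help to place these differences, since both deletions were fitted together. Between FKl/l MHC+ and FKl/l MCK+ 345 of 16018 genes were called (2.15%). Fkbp1a was not among them (59.1 ± 12.6 CPM in FKl/l MHC+, SD, n = 6; difference -0.14 on the log2 scale, SE 0.124, adjusted p = 0.638), nor was Kcne1 (7.83 CPM in FKl/l MHC+, difference 0.01, SE 0.239). For Cpne5 (7.37 CPM in FKl/l MHC+, difference -0.41, adjusted p = 0.089), Cntn2 (24.2 CPM, 0.28, adjusted p = 0.0566), Hamp (20.9 CPM, 0.07) and Fam78a (25.9 CPM, 0.01) the difference did not pass the test either, which does not show that the levels were equal. The genes were chosen by their difference between FKl/l MCK+ and FKl/l, and the same FKl/l MCK+ libraries enter this contrast, so how many of them differ here is not independent of the choice and the values are given as a description. Of the 8 genes 2 passed the test between the deletions. Masp1 was higher still in FKl/l MHC+, at 27.0 CPM (difference 0.55, SE 0.104, adjusted p = 0.00466). Fbln1 was lower there, at 133 ± 21.4 CPM (difference -0.41, SE 0.0938, adjusted p = 0.0173).

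Among the next 22 genes, chosen in the same way, 10 passed that test. Pdgfrb (66.4 CPM in FKl/l MHC+, difference -0.36, adjusted p = 0.00079), Notch4 (26.05 CPM, -0.47, adjusted p = 0.00226), Htra3 (-0.35), Slc44a2 (-0.31), Micall2 (-0.39) and Nid1 (65.2 CPM, -0.26) were lower in FKl/l MHC+ than in FKl/l MCK+, as was Efnb3 (39.8 CPM, -0.43, adjusted p = 0.0237). Ucp2 (235 CPM, 0.60, adjusted p = 0.000472), Fzd2 (0.59, adjusted p = 0.00244) and Tex261 (0.34, adjusted p = 0.0198) were higher. The junctional gene Jsrp1, named after its values were seen, had means of 0.244 CPM (FKl/l MCK+) and 0.737 CPM (FKl/l MHC+) (difference 1.57, SE 0.263, adjusted p = 0.00152). Its mean in FKl/l was 0.468 CPM, between those of the 2 deletions.

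The authors' deposited table for this comparison called 2 genes at an adjusted p under 0.05, Fkbp1a (log2 fold change -1.02, adjusted p = 0.0286 in the authors' deposited table) and Kcne1 (1.75, adjusted p = 0.0361). Cpne5 followed in the authors' deposited table with a log2 fold change of 0.97 and an adjusted p of 0.0675. The statistic in that table is 0 for 13903 of 16363 genes, those with a log2 fold change of up to 0.263 in size, a fold of 1.2. Its 2 calls are therefore not a count to set beside the 8 called here with no minimum fold. Against a minimum fold of 1.2 the genes called here were Fkbp1a, Cpne5 and Kcne1.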

How the data were processed

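Whole heart RNA was sequenced as 24 libraries in 2 batches, with 6 libraries in each of 4 genotypes. The authors deposited counts per gene. Per the submitters' processing notes bcl2fastq 2.17, FastQC, Trim Galore, STAR and RSEM were used with build mm10, and per the labels' protocols the kit was strand-specific. For strand setting, annotation version and rounding the sources used here name nothing. The authors' deposited tables also hold log2 fold changes, p-values and a test statistic, a score that is 0 for genes with small folds, used only where named.

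Of 56384 rows 3660 named by a transcript were left out, leaving 52724 gene rows. Counts were scaled by TMM and filtered by genotype, and 16018 genes were tested in edgeR 4.0.16 (R 4.3.3) by the quasi-likelihood test with genotype and batch as terms, over all 24 libraries, with Benjamini-Hochberg adjustment. A gene was called at an adjusted p under 0.05, and CPM are counts scaled to the TMM-adjusted library size. Errors of log2 fold changes (SE) are approximate standard errors, the size of the log2 fold change divided by the square root of the test's F statistic. limma 3.58.1 (voom) and DESeq2 1.42.0 were alternatives, as were other scalings, filters, terms and left-out libraries. The pipeline was tested on simulated data.

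Genes named were those called, the next by p up to 30 in all with a mean of at least 1 CPM, the 8 largest folds each way at an unadjusted p under 0.05 with a mean of at least 5 CPM, and up to 4 members of each of 46 lists by p. The members and lists were chosen with earlier results of these data known. Gene positions are from GENCODE M21. No 2 libraries of a genotype agreed within sampling noise (chi-square per degree of freedom 7.87 to 143 over 30 pairs, within and across batches). Within a genotype and batch the highest value was 90.2, for FKl/l 1-1 against FKl/l 1-3.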

Additional observations from a re-analysis of the deposited data

Results flagged for a closer look

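In 18 of 176 groups of 6 libraries examined, 1 library lay far from the others. The rule's nominal rate of about 1 in 20 is not a measure for this count. Some of the genes were chosen for large folds, which 1 extreme library can produce, and each group holds libraries of both batches. Among controls, FKl/l 2-2 stood apart in Gbp6 (271.8 CPM, the nearest library 26.6), Iigp1 (489.8, 30.2), Igtp (577.7, 21.2) and Irgm2 (461.7, 30.2), all induced by interferon. FKl/l 1-1 stood apart in Ltf (58.5 CPM, 0.867), in Myh7 (210.7, 104) and, on the low side, in Kcnq1 (23.7, 31.2). FKl/l 1-3 did so in Nppa (5378 CPM, 2614) and Cacna1h (45.1, 29.1), and FKl/l 1-2 in Jsrp1 (0.679, 0.476). Among deletion libraries FKl/l MCK+ 2-3 was high in Hspa1b (8.99 CPM, 3.43), Hspa1a (12.7, 5.75) and Nrgn (16.3, 7.14), FKl/l MCK+ 2-1 in Igtp (26.5, 19.2) and Irgm2 (44.4, 31.9), FKl/l MCK+ 1-2 in Fbn2 (3.43, 2.14) and Sdcbp2 (1.58, 0.984), and FKl/l MCK+ 1-3 in Tex261 (78.8, 60.2).

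Genes were chosen by their difference between FKl/l MCK+ and FKl/l, which shares the FKl/l MCK+ libraries with the next contrast. The log2 difference of FKl/l MHC+ from FKl/l MCK+ passed edgeR's test for Masp1 (0.55), Fbln1 (-0.41), Slc44a2 (-0.31), Nid1 (-0.26), Pdgfrb (-0.36), Efnb3 (-0.43), Notch4 (-0.47), Ucp2 (0.60), Micall2 (-0.39), Htra3 (-0.35), Fzd2 (0.59), Tex261 (0.34) and Jsrp1 (1.57).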

How the results depend on the processing

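The count of 8 called genes was 9 with DESeq2's size factors in edgeR, 8 with voom, 7 in batch 2 alone, 5 when batch was left out of the model, 4 when Y-linked transcripts were a term, 3 against a fold of 1.2, 1 in batch 1 alone and 20 with DESeq2, and from 5 to 11 when any 1 library was left out (11 without FKl/l 1-3, 6 of them shared). With the replicate block in place of batch it was 7, without Cntn2. Same-numbered libraries correlated at -0.324 to 0.054, and 1 of 6 correlated best with its own number, so the numbers were not taken to pair the libraries. The 345 genes that differed between the deletions became 578 with DESeq2. The interaction with batch gave 0 or 1 called genes when a library was left out, 1 of them without FKl/l 1-2.

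Of 3603 alternative values for 88 genes 3466 kept their direction and their side of the threshold, 59 lost a call, 38 gained one and 40 changed sign. Only the 8 called genes could lose a call, so the 59 are not a share of all 3603. Of the 24 fits that each left out 1 library, Fam78a was called in 11, Cntn2 in 12 and Hamp in 21. The other called genes were called in all 24. The sign changes were in genes with no call. In batch 1 alone these were Fkbp1b (-0.29), Ryr2 (0.01361), Casq2 (0.003321), Pln (0.02839), Iigp1 (0.02404), Irgm2 (0.08496) and Igtp (0.06339). In batch 2 alone they were Nppb (0.63), Nppa (0.37), Ltf (0.60) and Atp2a2 (-0.02454). With Y-linked transcripts as a term they were Ryr2 (0.05113), Casq2 (0.02479), Pln (0.06166) and Nppb (0.02264), with the replicate block Nppb (0.01357), and with voom Ltf (0.03227). Without FKl/l 1-1 and libraries 1-3 and 2-3 of MHC CRE Only they were Nppb (0.19) and Ltf (1.07). Without FKl/l 1-1, FKl/l 1-3 and FKl/l MCK+ 1-2, a choice made after seeing the data, they were Nppb (0.24), Nppa (0.15), Atp2a2 (-0.0155) and Ltf (0.14). With 1 library left out the ranges of the genes that changed sign were -0.006705 to 0.11 for Atp2a2, -0.03276 to 0.03169 for Casq2, -0.01276 to 0.32 for Fkbp1b, -2.50 to 0.16 for Igtp, -1.67 to 0.18 for Irgm2, -5.18 to 1.44 for Ltf, -0.33 to 0.11 for Nppa and -0.13 to 0.20 for Nppb. The cause was not tested. Of 782 alternative list medians 27 moved by more than the spread between libraries.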

Other observations

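The 36 genes whose libraries did not overlap between the genotypes were 25 of 16018 tested on the higher side (0.156%) and 11 on the lower (0.0687%). How many would separate by chance was not tested. Of the 36 genes 28 were neither called by edgeR nor among the next 22 by p. Those named here were chosen after their values were seen, and their adjusted p-values in edgeR's test ran from 0.479 to 0.721. The sorting adaptor gene Gipc3 was at 12.6 to 16.5 CPM in FKl/l and 16.99 to 19.8 CPM in FKl/l MCK+ (log2 fold change 0.31, unadjusted p = 0.00108). Nrf1, a transcription factor of mitochondrial genes, was at 9.37 to 11.8 and 11.9 to 13.1 CPM (0.23, unadjusted p = 0.00134). The fatty acid desaturase Fads1 was at 28.0 to 30.6 and 31.2 to 37.2 CPM (0.21, unadjusted p = 0.00252). On the lower side Idh1, the cytosolic isocitrate dehydrogenase, was at 25.5 to 30.6 and 21.2 to 25.3 CPM (-0.22, unadjusted p = 0.00398), and the cytochrome Cyp2e1 at 10.1 to 33.6 and 6.89 to 9.44 CPM (-1.17, unadjusted p = 0.00522).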
